A study of Mus musculus with 11 samples.

Results

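Potassium channels set the resting potential of a neuron, shape its spikes and limit its firing, and the genes of the family were followed here in the nucleus accumbens shell of the mouse. Members were the protein-coding genes of GENCODE M21 with a symbol starting with Kcn and a median raw count of at least 50 over the 11 libraries, without Kcnj8 and Kcnj10, which were left out by name. Of 94 such genes, all in the count table, 24 fell below the count threshold and 68 were members, out of 52550 genes in the table. The count threshold used the same counts as the levels given here, so levels are a description. The genes just inside it were Kcnj5, Kcnj14 and Kcnk9, with median counts of 62, 64 and 67. The genes just outside it were Kcng4, Kcnh8 and Kcne4, with median counts of 42, 37 and 30.

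The 11 poly(A) RNA libraries came from the accumbens shell of 8-week-old mice of CBA/C57BL6J/129svEmx mixed background, punched from frozen sections of 300 µm. The series concerns lowered retinoic acid receptor beta (Rarb) signalling in the R6/1 model of Huntington disease, whose transgene is an expanded exon of the human HTT gene under its own promoter. The labels give an animal number and a code from NSZR1 to NSZR14 for each library and no genotype, so no library was placed in a group, all values are per library, and genotype cannot be told apart from animal, dissection or library. The design text names 12 samples, of which 1 did not pass quality control.

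Channels of the family assemble from pore-forming subunits with accessory subunits that change their gating or their delivery to the membrane. In the projection neurons of the striatum, inward rectifiers of the Kir2 family and leak channels hold the membrane at a hyperpolarized potential. Kv4 channels with KChIP subunits carry A-type currents. Currents of Kv1, Kv7 and calcium-activated channels also set how readily and how regularly the cell fires.

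Libraries held 24840981 to 48825783 counts (median 36252983), and all 68 members passed the filter on low counts, as did 15373 genes in all. Levels are given as CPM, counts scaled to library size. Striatal tissue was recognised in the data: the lowest of 12 projection neuron markers, Rasgrp2, had a median of 46.7 CPM. These 12 markers summed to 3108 CPM in library m74 and 7115 CPM in m44, and 8 oligodendrocyte markers to 1906 CPM in m47 and 4773 CPM in m83. Over the lists for 12 cell types or regions, 1 marker in the table, Ccdc153 of the ventricle wall, had a median below 1 CPM, at 0.621 CPM. Markers of cortical glutamatergic neurons, which the accumbens does not contain, summed to 816 to 2416 CPM. In bulk tissue, fewer cells of a type and less RNA per cell cannot be told apart. Library m57 held the highest level of 24 members and the lowest of 0, and m61 held the highest of 12 and the lowest of 10. The lowest level fell in m101 for 14 members and in m47 for 12. These counts were made for members only, so whether they differ from those of all genes was not tested. Genes with a count above 0 were most numerous in m57, at 24952, and least numerous in m61, at 20524.

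Per length, the most abundant member was the inward rectifier Kcnj4, at a median of 77.1 CPM per kb of exon. It was followed by the Kv1 accessory subunit Kcnab2 at 60.8, the KChIP subunits Kcnip3 at 41.7 and Kcnip2 at 40.6, and the leak channel subunit Kcnk1 at 37.7 CPM per kb. The ranges of Kcnj4 (57.4 to 131) and Kcnab2 (46.9 to 70.8) overlapped, as did those of Kcnip3 (29.4 to 56.3) and Kcnip2 (34.7 to 72.4). Medians reached 20 CPM per kb in 10 members and 10 CPM per kb in 28, and lay below 1 CPM per kb in 11. With the longest transcript in place of all exons as the length, Kcnab2 at 86.4 CPM per kb stood above Kcnj4. Summed over subfamilies, the 10 Kcnj members gave a median of 142 CPM per kb (116 to 188), the 9 Kcnk members 67.6, the 5 Kcna members 56.9, the 4 Kcnq members 51.4, the 4 Kcnc members 48.7, the 7 Kcnh members 44.9, the 3 Kcnd members 34.3 and the 3 Kcnn members 12.7. The 21 members outside these subfamilies and Kcnb, mostly accessory and silent subunits, summed to 303 CPM per kb, and the sum of the 2 Kcnb members is not given here.

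**Figure D1:**
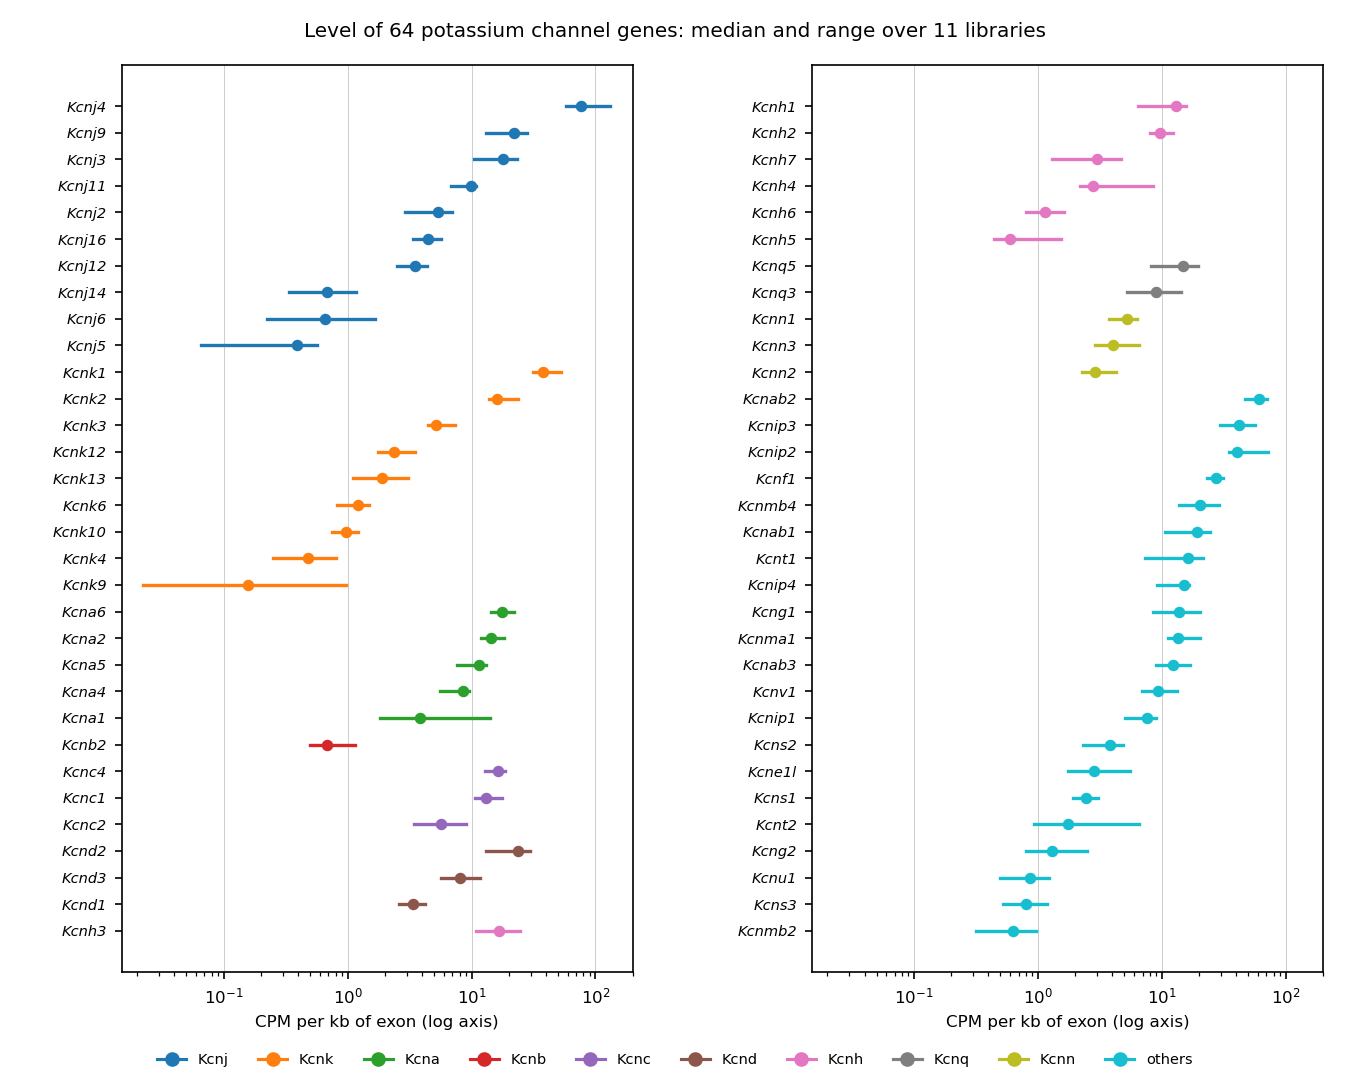
Level of 64 of the 68 potassium channel genes in CPM per kb of exon, on a log axis, with points for the median and bars for the range over 11 libraries, coloured by subfamily. Kcnj4 at 77.1 and Kcnab2 at 60.8 CPM per kb lead, and Kcnk9 at 0.158 CPM per kb has the lowest median and the widest range.

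Among the strong inward rectifiers, Kcnj4 (chr15:79483714-79505241, minus strand, mm10) ran from 123 CPM in m47 through a median of 166 CPM to 282 CPM in m61, a 2.28-fold range. Its 5 highest libraries were m61, m83, m44, m57 and m89. Kcnj2 (chr11:111066164-111076821, plus strand), the founding Kir2 channel, had a median of 29.0 CPM, a lowest value of 15.7 CPM (m74) and a highest of 37.9 CPM (m44). Its low value was that of a single library: its spread, the biological coefficient of variation over libraries, was 0.220 and fell to 0.143 without m74. Kcnj12, another Kir2 subunit, varied less, from 6.93 to 11.9 CPM with a spread of 0.158. Kcnj14, also of the Kir2 family, was listed at 0.913 to 3.16 CPM.

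The G protein-gated rectifiers, through which dopamine D2 and opioid receptors inhibit neurons, differed in level and in steadiness. Kcnj9 led them with a median of 22.2 CPM per kb and Kcnj3 followed with 17.9 CPM per kb, with ranges that overlapped. Kcnj6 lay at 5.03 CPM (median), with 1.72 CPM in m101 and 12.7 CPM in m57, and its spread of 0.456 was the largest of the Kcnj subfamily. The other 9 libraries lay between 3.53 and 6.66 CPM. Kcnj5 had a median of 1.82 CPM and 0.310 CPM in m61, and its spread fell from 0.429 to 0.232 without that library. Kcnj11, the pore of the ATP-sensitive channel, had the smallest spread of the subfamily, 0.157, with 25.2 to 39.7 CPM. Kcnj16, a partner of glial rectifiers, lay at 13.2 to 22.5 CPM.

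The K2P leak channels were led by Kcnk1, at 70.2 CPM in m47, a median of 84.2 CPM and 118 CPM in m61. It had the smallest spread of the subfamily, 0.139, which was 0.0862 without m61. Kcnk2 (chr1:189207930-189402273, minus strand), a leak channel opened by stretch and by lipids, ran from 68.7 CPM in m73 through 78.7 CPM to 118 CPM in m61, with m44, m83 and m89 next, the last of them at 92.5 CPM. Kcnk9, an acid-sensitive leak channel, had the largest spread of all members, 0.903, from 0.276 CPM in m101 through 1.94 CPM to 11.9 CPM in m57. The second highest library, m115, was at 3.22 CPM, and the spread without m57 was 0.619. Kcnk3, the acid-sensitive channel closest to it in sequence, varied from 17.8 to 29.5 CPM with a spread of 0.155. The 5 other members, Kcnk4, Kcnk6, Kcnk10, Kcnk12 and Kcnk13, had medians between 2.14 and 8.45 CPM.

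Of the Kv4 channels, which carry the A-type current, Kcnd2 (chr6:21215503-21729805, plus strand) was the most abundant per length and had the largest spread, 0.277. It ran from 67.3 CPM in m49 through 122 CPM to 153 CPM in m57. Libraries m49, m74 and m83 were at 67.3, 73.9 and 83.8 CPM, and all others were at 102 CPM or more. Kcnd3 ran from 54.3 to 113 CPM, and Kcnd1 from 13.7 to 22.3 CPM with a spread of 0.140. Their KChIP partners did not share one profile: Kcnip4 had its lowest values in m74 and m49, at 33.4 and 36.6 CPM, as Kcnd2 did, whereas Kcnip2 was highest in m83, m44, m89 and m57, at 252, 251, 230 and 181 CPM, against 121 to 145 CPM in the other 7 libraries. Kcnip3, which also acts as a calcium-dependent repressor of transcription, ran from 104 CPM in m115 to 200 CPM in m83. Kcnip1 ran from 31.6 to 56.0 CPM.

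In the Kv1 subfamily, which controls axonal excitability, Kcna6 was the most abundant per length at 17.5 CPM per kb and Kcna2 the steadiest, with a spread of 0.127 and 143 to 218 CPM. Gm26673, a gene on the opposite strand, overlaps 39.6% of the exon length of Kcna6, so its count is uncertain where the strand of counting is not given. Kcna1 had the second largest spread of all members, 0.658: it ran from 8.73 CPM in m61 through 18.4 CPM to 67.4 CPM in m57, with 37.8 CPM in m115 and 32.3 CPM in m47. Kcna5 and Kcna6 lie on either side of Kcna1 on chromosome 6, at distances of 105 and 61.9 kb, and had spreads of 0.157 and 0.147. Kcnj16 and Kcnj2 are neighbours likewise, 38.2 kb apart on chromosome 11, with spreads of 0.167 and 0.220. Of the cytoplasmic beta subunits of Kv1, Kcnab2 ran from 261 to 395 CPM, Kcnab1 from 90.6 to 211 CPM and Kcnab3 from 25.6 to 48.3 CPM.

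The delayed rectifier Kcnb2 had 7.61 to 17.3 CPM with a spread of 0.283. Kcnf1, a silent subunit that assembles with Kv2 channels, had the smallest spread of all 68 members, 0.0925, with 110 CPM in m101, a median of 132 CPM and 148 CPM in m74. The other silent subunits Kcng1, Kcng2, Kcns1, Kcns2, Kcns3 and Kcnv1 had spreads from 0.151 to 0.333. Of the Kv3 channels, which allow fast firing, Kcnc4, the most abundant of them per length at 16.4 CPM per kb, ran from 46.7 to 68.2 CPM. Kcnc2 was the exception, with 24.4 CPM in m49, a median of 40.8 CPM, 64.2 CPM in m57 and a spread of 0.307.

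The Kv7 channels carry the M current that muscarinic receptors suppress. Kcnq3 ran from 76.7 CPM in m49 through 133 CPM to 210 CPM in m57, with the largest spread of the subfamily, 0.289. Kcnq5 ran from 63.1 to 151 CPM.

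The Kcnh subfamily of ether-a-go-go channels had the largest median spread, 0.311 over 7 members, against 0.217 over all members and 0.201 over all 15373 genes. Kcnh3 (chr15:99224861-99242817, plus strand), a channel of the Elk group, was the most abundant per length at 16.8 CPM per kb. It lay at 122 to 143 CPM in m44, m83, m61, m89 and m57 and at 63.0 to 96.7 CPM in the other 6 libraries. Kcnh4 (chr11:100740376-100759942, minus strand), also of the Elk group, had the largest spread of the subfamily, 0.559: it stood at 33.5 CPM in m44, 31.5 CPM in m83, 26.9 CPM in m89 and 22.3 CPM in m57, and at 8.65 to 11.4 CPM in the other 7 libraries, m61 among them. Kcnh7 of the Erg group ran from 19.8 CPM in m49 to 71.4 CPM in m73, and Kcnh2 had the smallest spread, 0.138. Kcnh1 of the Eag group was at 46.9 CPM in m101 and 72.7 to 116 CPM elsewhere, and its spread fell from 0.238 to 0.146 without m101. Kcnh5 was at 6.27 CPM in m57 and 1.81 to 4.04 CPM elsewhere, and its spread fell from 0.371 to 0.212 without m57. Kcnh6, at 2.86 to 5.79 CPM, had a spread of 0.173, or 0.114 without m49.

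Among channels gated by calcium or sodium ions, the BK pore Kcnma1 ran from 190 to 343 CPM, and its spread fell from 0.174 to 0.114 without m57. Its neuronal beta subunit Kcnmb4 ran from 45.5 CPM in m115 through 67.1 CPM to 97.2 CPM in m61, and Kcnmb2 from 1.00 to 3.03 CPM. Of the SK channels, which follow calcium entry after a spike, Kcnn1 was the most abundant per length at 5.21 CPM per kb and had the smallest spread, 0.188, while Kcnn3 had the largest, 0.295, from 30.2 CPM in m101 through 42.5 CPM to 68.8 CPM in m57. Kcnn2 lay at 17.0 to 31.8 CPM. The sodium-activated channel Kcnt2 had the third largest spread of all members, 0.634, from 6.41 CPM in m74 through 12.1 CPM to 44.9 CPM in m73, whereas its relative Kcnt1 lay between 69.2 CPM (m61) and 203 CPM (m89), with a spread of 0.283 that fell to 0.185 without m61. Kcnu1, known as a sperm channel, and the accessory subunit Kcne1l were at 1.86 to 4.60 and 2.69 to 8.60 CPM.

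**Figure D2:**
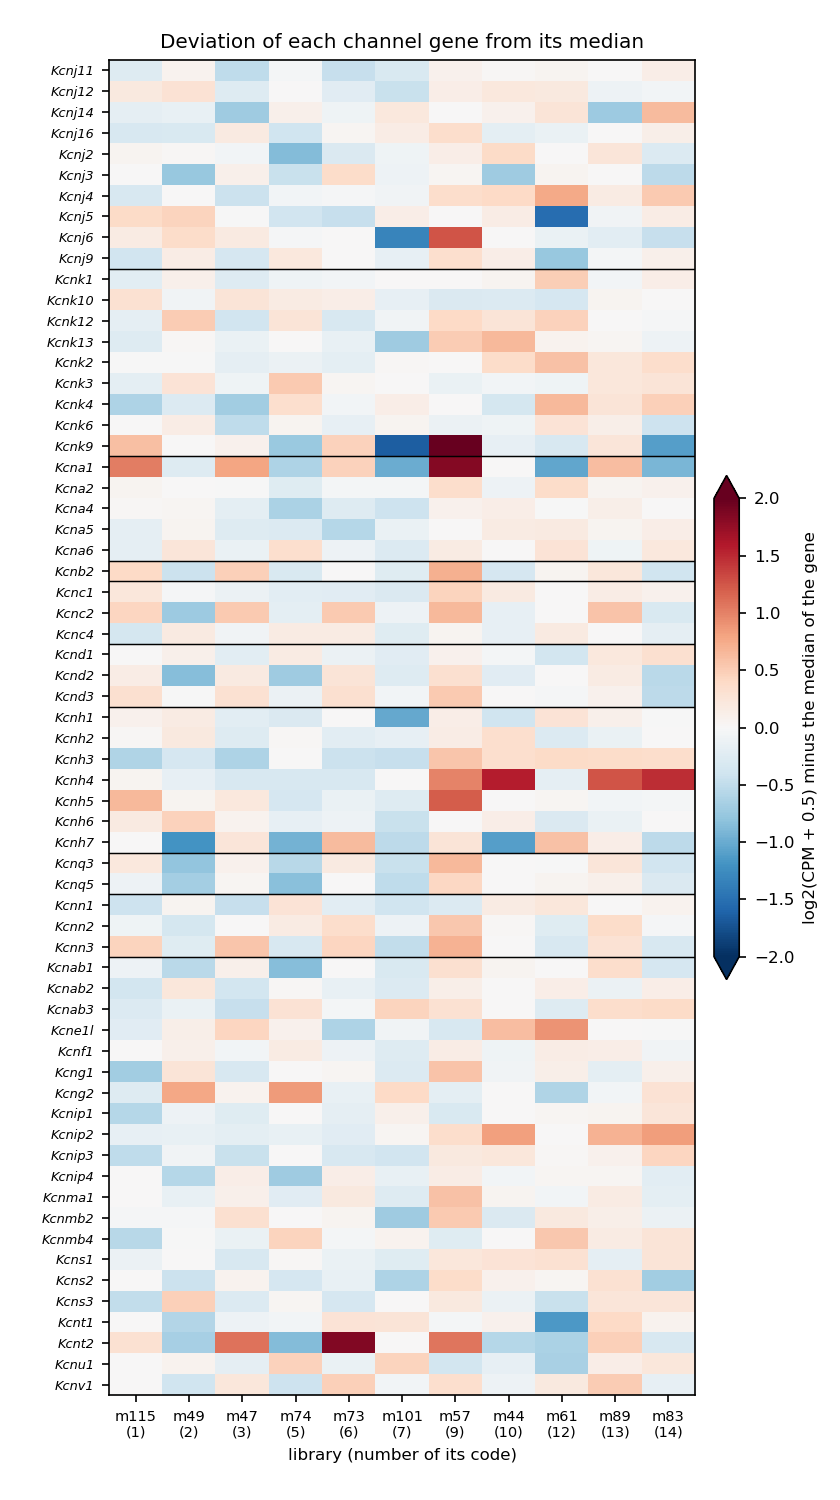
Each row is 1 of 64 channel genes and each column 1 library, labelled with the number of its code, and the colour is log2(CPM + 0.5) minus the median of the gene, cut at 2 in either direction. Kcnk9, Kcna1 and Kcnt2 carry the strongest colours, and Kcnh4 is high in m44, m83, m89 and m57.

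The spreads of the members ranged from 0.0925 to 0.903. The spread exceeded the median of all genes, as by construction it does for 50% of genes, in 38 of 68 members. The highest 25% of genes by spread held 15 members, the highest 10% held 6 and the lowest 25% held 9. The 5 largest spreads were those of Kcnk9, Kcna1, Kcnt2, Kcnh4 and Kcnj6, and Kcnf1, Kcna2 and Kcnc4 were among the 5 smallest. By subfamily the median spread was 0.142 for Kcnc, 0.157 for Kcna, 0.176 for Kcnk, 0.190 for Kcnn, 0.194 for Kcnd, 0.206 for Kcnq and 0.235 for Kcnj. None of the 68 members had values in separate clusters, defined by a gap over 0.5 of the log2 range that leaves 2 or more libraries on either side, as 0.371% of all genes did. With a gap over 0.4 of the range, Kcnh4 did.

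**Figure D3:**
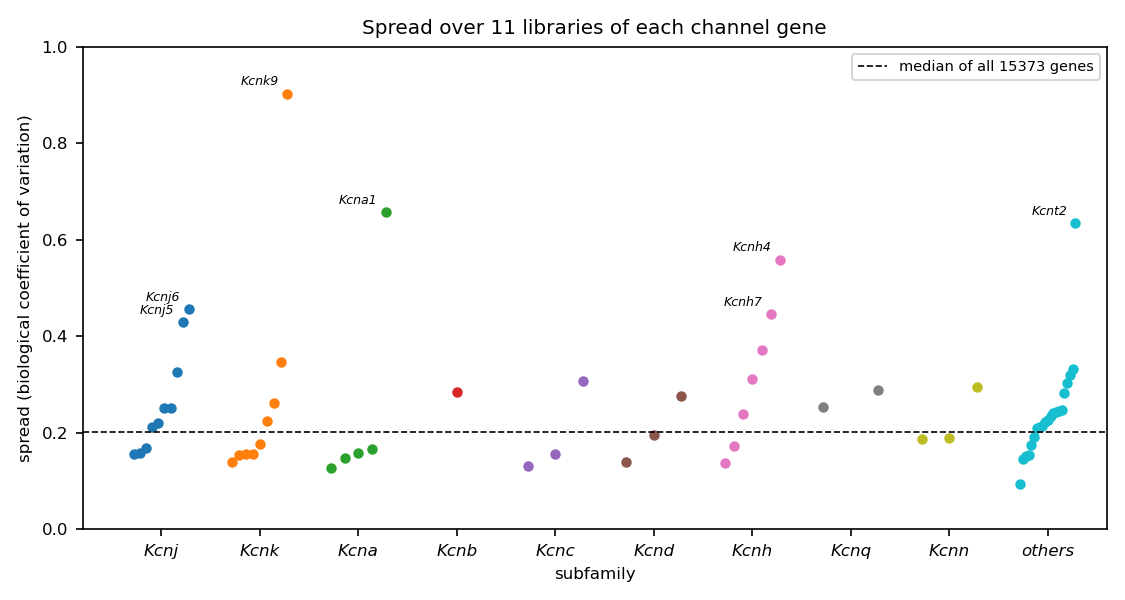
Spread of 64 of the 68 channel genes over 11 libraries, as a biological coefficient of variation, by subfamily. The dashed line is the median of all 15373 genes, 0.201. Kcnk9 at 0.903, Kcna1 at 0.658 and Kcnt2 at 0.634 stand highest.

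Each library was then described by 4 measures that hold no gene with a symbol starting with Kcn. The log2 level of every gene was fitted on each with edgeR's quasi-likelihood test, with Benjamini-Hochberg adjustment over 15373 genes. The genes that build a measure stayed among the 15373 genes tested. Shares of all genes called on a measure therefore include them, and their slopes follow in part from its definition. A slope is the log2 change of a gene per unit of the measure. The projection neuron score is the mean over 12 markers of log2(CPM + 0.5) after subtraction of each marker's median, and it ran from -0.49 in m74 to 0.66 in m44. All 5 libraries with codes from NSZR9 (m57, m44, m61, m89 and m83, at 0.34 to 0.66) had a higher score than all 6 with codes up to NSZR7 (-0.49 to -0.12), and what the codes stand for is not given. The score and the code cannot be told apart.

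Kcnh4 rose with the projection neuron score, with a slope of 1.70 ± 0.24 (SE, n = 11 libraries, adjusted p = 0.00472 in edgeR). Kcnip2 rose likewise, with 0.88 ± 0.16 (adjusted p = 0.0177). These were 2 of 68 members, where 0.69% of all genes rose with the score, and no member fell, where 0.026% of all genes did (0.716% in either direction). Kcnh4 was called in each of the 11 fits that left out 1 library, and Kcnip2 was not called without m73, m44 or m89. Without m44 and m89 together, the slopes were 1.51 for Kcnh4 (adjusted p = 0.137) and 0.74 for Kcnip2 (adjusted p = 0.339). With the code as a second covariate, chosen after the data were seen, the slope of Kcnh4 was 2.21 (adjusted p = 0.307) and that of Kcnip2 was 0.84 (adjusted p = 0.528).

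The slopes of Kcnh3, 0.84 ± 0.18 (adjusted p = 0.0558), Kcnj4, 0.61 ± 0.18 (adjusted p = 0.201), Kcnip3, 0.51 ± 0.16 (adjusted p = 0.229), and Kcnk2, 0.45 ± 0.14 (adjusted p = 0.272), did not pass in edgeR, and with the code as a second covariate all 4 had the opposite sign. Kcnh3 passed by DESeq2 (slope 0.85, adjusted p = 0.00280), with the cortical score (adjusted p = 0.0494) or the length measure (adjusted p = 0.00844) as a second covariate, and without m74 (adjusted p = 0.00548). Kcnj2 had a slope of 0.49 ± 0.19 (adjusted p = 0.427) and Kcnd2 of 0.19 ± 0.27 (adjusted p = 0.998). Without m74 the slopes of Kcnj2 and Kcnd2 were 0.31 and 0.01, and that of Kcnd2 was 0.07 without m57, 0.10 without m49, 0.29 without m44, 0.31 without m83 and 0.35 without m73. Slopes above 0, passing or not, were found for 57 of 68 members and 43.5% of all genes, with medians of 0.20 and -0.03. On unscaled library totals these were 53 members and 34.3% of genes, without m57 49 members and 42.6% of genes, and with the code as a second covariate 38 members and 55.6% of genes. An unadjusted p under 0.05 was found for 14 members and for 7.85% of all genes.

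**Figure D4:**
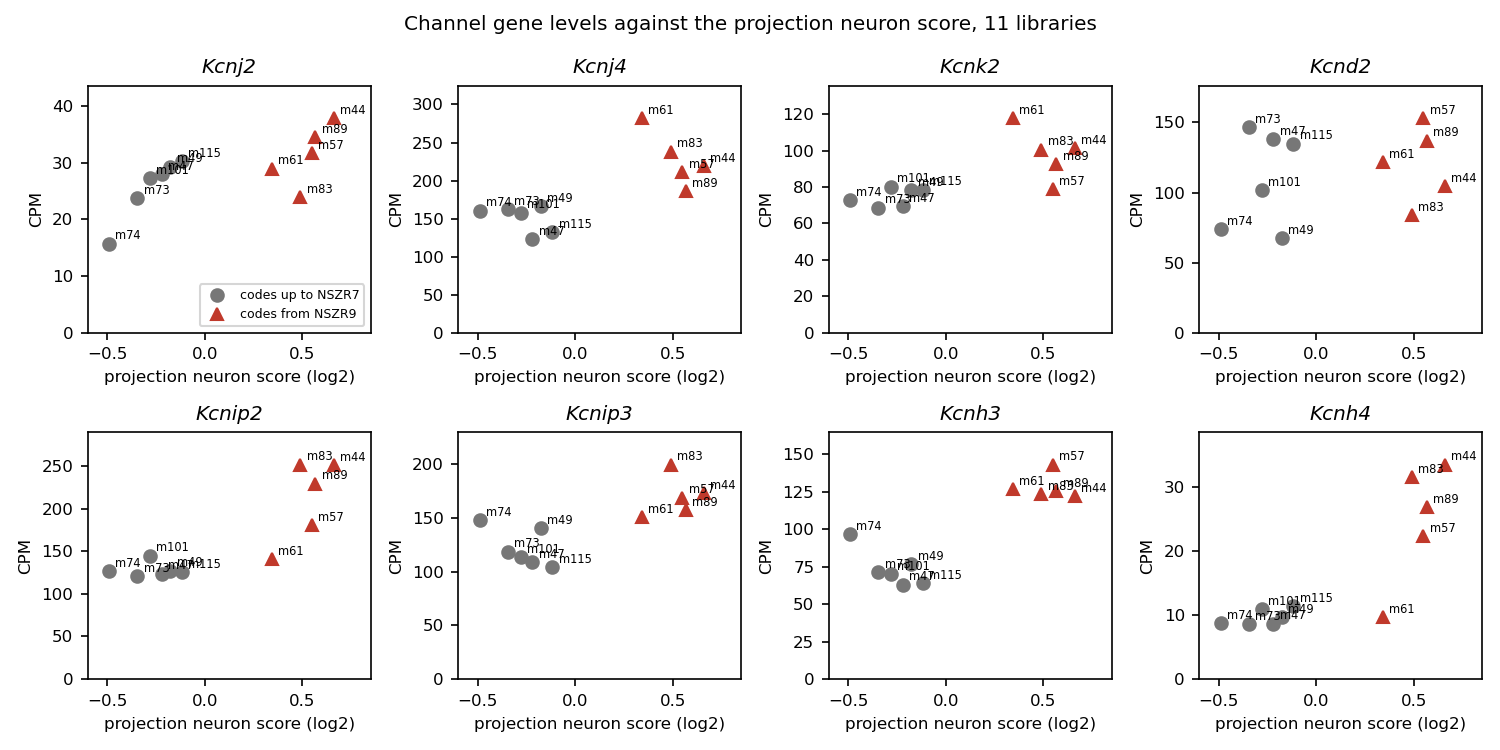
Level in CPM of 8 channel genes in each of 11 libraries against the projection neuron score of the library, a mean log2 deviation, with grey circles for codes up to NSZR7 and red triangles for codes from NSZR9. Kcnh4 is at 22.3 to 33.5 CPM in 4 libraries of high score and at 9.66 CPM in m61, and Kcnh3, Kcnip3 and Kcnj4 do not overlap between the codes.

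Read by code alone, with no test, 3 members had every library from NSZR9 above every library up to NSZR7, where 1.67% of all genes did. These were Kcnj4 (186 to 282 against 123 to 166 CPM), Kcnip3 (151 to 200 against 104 to 148 CPM) and Kcnh3 (122 to 143 against 63.0 to 96.7 CPM). No member showed the opposite order, where 0.65% of all genes did. Values of Kcnk2 (78.7 to 118 against 68.7 to 80.2 CPM), Kcnip2 (141 to 252 against 121 to 145 CPM), Kcnj2 (24.0 to 37.9 against 15.7 to 30.3 CPM) and Kcnd2 (83.8 to 153 against 67.3 to 147 CPM) overlapped.

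The oligodendrocyte score, built likewise from 8 markers, ran from -0.53 in m47 to 0.53 in m83. By code it was 0.02 to 0.53 from NSZR9 and -0.53 to 0.14 up to NSZR7. Kcnh3 rose with it, with a slope of 1.13 (adjusted p = 0.0410 in edgeR), the only member among the 0.0911% of all genes that did, and no member fell, where 0.013% of all genes did (0.104% in either direction). That call held in 2 of the 11 fits that left out 1 library, those without m44 and without m74, and the slope was 0.53 (adjusted p = 0.799) with the code as a second covariate. The part of cell composition in the levels of Kcnh3 was not tested. Slopes on this score were above 0 for 55 members and 47.5% of all genes, or 42 members and 46.9% of genes without m57. With the code as a second covariate they were above 0 for 31 members and 48.5% of genes, with medians of -0.10 and -0.02. An unadjusted p under 0.05 was found for 9 members and 9.26% of all genes.

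On the cortical glutamatergic score, from 7 markers and between -0.45 in m115 and 0.33 in m89, 0% of all genes and 0 members passed in edgeR, and none did by DESeq2. An unadjusted p under 0.05 was found for 2.07% of all genes and 3 members. Slopes above 0 were found for 38 of 68 members and 52.6% of all genes.

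The length measure of a library is a difference between the 10% of genes with most exon sequence and the 10% with least, each taken as its median log2 deviation. It ran from -0.64 in m61 to 0.43 in m115, with m57, m47, m89 and m73 also above 0. Members rose with it in 11 of 68 cases, where 18.1% of all genes rose, and fell in 5, where 14.9% of all genes fell (32.9% in either direction). An unadjusted p under 0.05 was found for 25 members and 42.7% of all genes. Kcnk9, with a slope of 2.66 ± 0.66 (SE, adjusted p = 0.00673), Kcna1, with 2.41 ± 0.26 (adjusted p = 0.000103), and Kcnt2, with 1.97 ± 0.45 (adjusted p = 0.00411), had the steepest rise, and these are also the members of largest spread. Without m57 the slope of Kcnk9 was 1.67 (adjusted p = 0.0419). Kcnn3 rose with a slope of 1.03 ± 0.14 (adjusted p = 0.000231).

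The Kv4 and Kv7 pores followed: Kcnd2 had a slope of 0.66 (adjusted p = 0.0317), Kcnd3 of 0.60 (adjusted p = 0.00414) and Kcnq3 of 0.71 (adjusted p = 0.0263). Kcnc2, Kcnb2 and Kcnma1 rose too, with slopes of 0.84, 0.77 and 0.46. The members that fell were Kcnk4, -0.97 (adjusted p = 0.0415), the BK beta subunit Kcnmb4, -0.69 (adjusted p = 0.00183), Kcnn1, -0.53 (adjusted p = 0.0242), Kcnip1, -0.45 (adjusted p = 0.0231), and Kcnk1, -0.39 (adjusted p = 0.0266). Kcnj4, -0.55 (adjusted p = 0.0634), Kcnk2, -0.40 (adjusted p = 0.0753), and Kcnj2, 0.32 (adjusted p = 0.322), did not pass in edgeR. Kcnj4 was called lower in 3 of the 11 fits that left out 1 library, and with the code as a second covariate. Its highest libraries, m61 and m83, had the lowest length measures, -0.64 and -0.46. Whether this bears on its order by code was not tested. Kcna1, Kcnk9, Kcnt2, Kcnn3, Kcnc2, Kcnd3 and Kcnmb4 were called in each fit that left out 1 library. Kcnd2 was called in 4 of those 11 fits, those without m49, m101, m44 or m61. Calls were also lost for Kcnb2, Kcnma1 and Kcnq3 without m57, for Kcnip1, Kcnk4, Kcnma1 and Kcnq3 without m83, and for Kcnk4, Kcnma1, Kcnn1 and Kcnq3 without m74. They were lost for Kcnip1, Kcnk1, Kcnk4 and Kcnn1 without m115, for Kcnk1, Kcnk4 and Kcnn1 without m47, for Kcnk1 and Kcnk4 without m61, and for Kcnk4 without m73. Without m61 the slope of Kcnd2 was 1.05 and that of Kcnk1 was -0.25, and without m57 that of Kcnma1 was 0.30. Members that rose numbered 6 without m57 and 18 without m61, and members that fell numbered 1 without m115, 2 without m47, 3 without m83 and 9 without m57.

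Exon lengths had a median of 10.5 kb among the 11 members that rose, 4.47 kb among the 5 that fell and 4.40 kb among the 52 others. The measure is itself built from exon length, so greater length among genes that rise with it follows in part from its definition. How RNA quality or library preparation bears on the length measure was not tested. All 16 members were called with the code as a second covariate. Of 20 listed partner genes of the channels, which hold auxiliary subunits, adaptors and HCN pacemaker channels, 18 passed the filter and Lrrc26 and Lrrc52 were listed at 0. Their median spread was 0.162, and 0 partners rose or fell with the projection neuron, cortical or oligodendrocyte score. With the length measure the Kv1 adaptor Adam22 rose, with a slope of 0.90 (adjusted p = 0.000423 in edgeR). Lgi3, -0.45 (adjusted p = 0.0385 in edgeR), and Hcn2, -0.49 (adjusted p = 0.0183 in edgeR), fell. These were 1 and 2 of 18 partners, where 18.1% of all genes rose with the measure and 14.9% fell. Partners were not kept out of the genes that build the length measure. Hcn2 was the most abundant partner at 47.2 CPM per kb, and Lrrc38 was the most variable, with a spread of 0.590.

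**Figure D5:**
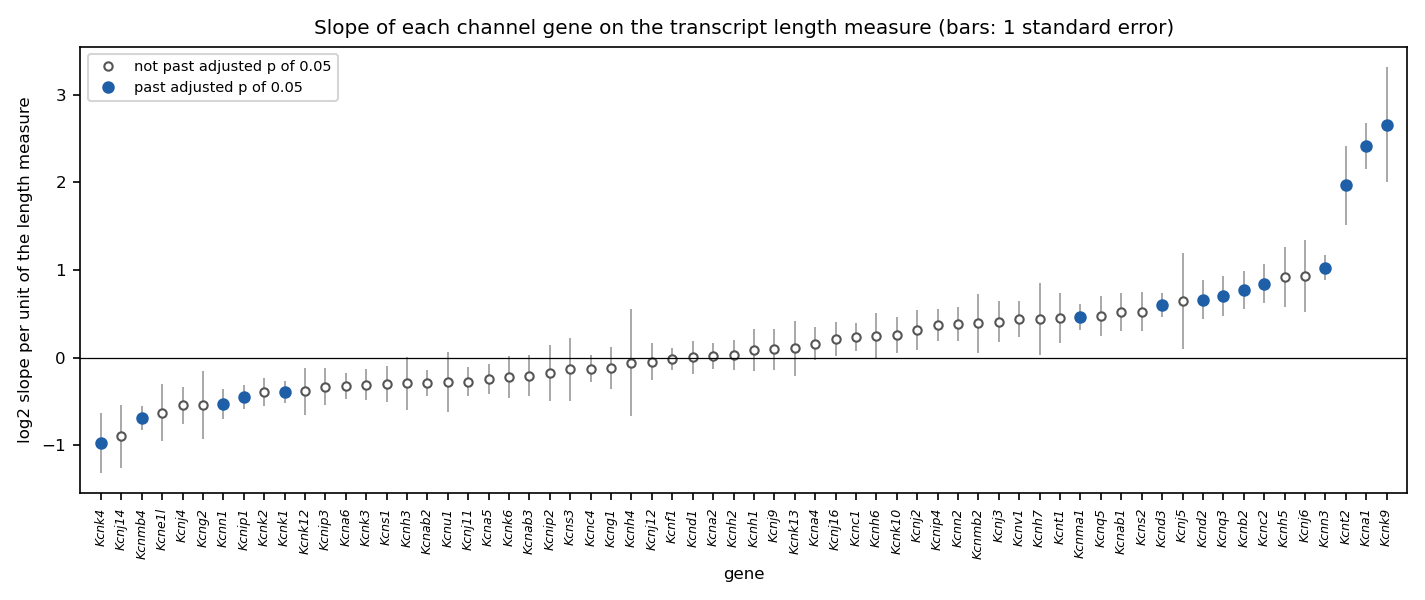
Slope of 64 of the 68 channel genes on the length measure, in log2 per unit, with bars of 1 standard error and filled points for an adjusted p below 0.05 in edgeR. Kcnk9, Kcna1 and Kcnt2 have slopes of 2.66, 2.41 and 1.97, and 5 genes from Kcnk4 to Kcnk1 pass below 0.

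The promoters of 4 members are shown, taken from RefSeq on GRCm38.p6, each from 250 bases before to 50 bases after a start: the member with most per length (Kcnj4), those that rose with the projection neuron score (Kcnh4 and Kcnip2) and the one of smallest spread (Kcnf1). Capitals mark GGGCGG, the GC box, or CCGCCC on the other strand, and in Kcnf1 the letters AGGTCA, the half-site of nuclear receptors, or TGACCT on the other strand.
Kcnj4 lies at chr15:79505192-79505491, Kcnh4 at chr11:100759729-100760028, Kcnip2 at chr19:45816014-45816313 and Kcnf1 at chr12:17176839-17177138, all on the minus strand.
Kcnj4 promoter: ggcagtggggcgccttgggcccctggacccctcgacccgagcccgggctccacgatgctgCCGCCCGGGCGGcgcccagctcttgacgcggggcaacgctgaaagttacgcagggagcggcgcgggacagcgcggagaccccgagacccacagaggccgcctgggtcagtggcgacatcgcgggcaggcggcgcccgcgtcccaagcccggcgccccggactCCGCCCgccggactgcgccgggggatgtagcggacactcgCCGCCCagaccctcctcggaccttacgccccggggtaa
Kcnh4 promoter: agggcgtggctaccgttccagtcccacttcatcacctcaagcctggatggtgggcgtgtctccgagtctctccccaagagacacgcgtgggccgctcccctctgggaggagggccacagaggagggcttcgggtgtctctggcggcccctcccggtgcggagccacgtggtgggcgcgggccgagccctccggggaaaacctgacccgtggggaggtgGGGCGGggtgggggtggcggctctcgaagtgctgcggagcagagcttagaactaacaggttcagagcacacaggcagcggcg
Kcnip2 promoter: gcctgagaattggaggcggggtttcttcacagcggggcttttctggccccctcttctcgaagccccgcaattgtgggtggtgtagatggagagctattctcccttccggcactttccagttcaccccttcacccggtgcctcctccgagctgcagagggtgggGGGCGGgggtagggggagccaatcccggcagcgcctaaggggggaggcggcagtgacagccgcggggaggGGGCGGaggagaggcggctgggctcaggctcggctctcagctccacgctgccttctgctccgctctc
Kcnf1 promoter: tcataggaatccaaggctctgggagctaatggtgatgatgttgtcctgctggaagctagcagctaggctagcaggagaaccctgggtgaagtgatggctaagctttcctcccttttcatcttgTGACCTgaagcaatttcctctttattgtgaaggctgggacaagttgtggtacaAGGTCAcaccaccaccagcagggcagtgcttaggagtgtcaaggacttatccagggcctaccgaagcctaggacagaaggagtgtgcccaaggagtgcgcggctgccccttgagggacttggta

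The Kcnj4 promoter held 4 GC boxes, of which 2 lie side by side, that of Kcnip2 held 2 and that of Kcnh4 held 1, whereas that of Kcnf1 held 0 and 2 copies of AGGTCA. RefSeq entries were found for 46 of 68 members, with 69 promoters. GGGCGG, on either strand, was present in 35 of these (50.7%) and in 35.7% of all 32851 promoters of the same length, and the median GC content was 59.7% against 52.7%. AGGTCA was present in 5 (7.25%), those of Kcnf1, Kcnh1, Kcnip4, Kcnj16 and Kcnk10, and in 16.3% of all promoters. TATAAA was present in 3 (4.35%) and in 13.6% of all. The cAMP response element TGACGTCA was present in 0 and in 1.79% of all, and the retinoic acid response elements of the DR5 and DR2 types in 0, against 0.097% and 0.268% of all. A match is a match of letters only and says nothing of binding.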

How the data were processed

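The authors deposited raw counts of reads per gene and library, with no normalization. Per the submitters' processing notes, the tools were HTSeq 0.6.1, TopHat2 2.0.14 with Bowtie2 2.1.0, and bcl2fastq 2.17.1.14, on the mm10 build. The labels' protocols give stranded poly(A) libraries from 200 ng of RNA with 12 PCR cycles. The sources used here do not give the strand setting or the annotation release. Exons of 22 members are overlapped by a gene on the other strand, over 20% of their length in Kcna6, Kcnj3 and Kcnmb4. A gene on the same strand overlaps 2 members, which the strand of counting does not separate. These are Kcnk4, at 587 of 4465 bases of exon (Catsperz), and Kcnab2, at 125 of 5578 bases (Gm16334). Names, exon lengths and positions came from GENCODE M21, which matched 52403 of 52550 identifiers.

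From these counts, CPM values were computed with edgeR 4.0.16 under R 4.3.3, after TMM scaling with factors of 0.908 to 1.06. A floor of 3 counts corresponded to 0.0619 to 0.133 CPM, for counting error only. Tested genes had a median count of 10 or more and reached 1 CPM in 3 libraries. The spread is edgeR's biological coefficient of variation for each gene on its own, with no covariate, so it holds genotype, animal and library differences together. Slopes were fitted with glmQLFit and glmQLFTest and called at an adjusted p below 0.05. Standard errors were derived from the test, as the absolute slope divided by the square root of its F statistic. The procedure was run on simulated counts with the same spread for every gene and no structure by length or code. That simulation therefore does not show how the fits behave where spreads differ or many genes follow the length measure. Alternatives used other scalings, filters, pseudocounts, covariates, DESeq2 1.42.0 and each library left out.

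Members, gene lists and the rule for naming genes (the 4 genes Kcnj2, Kcnj4, Kcnk2 and Kcnd2, the extremes of level and spread, within each subfamily and among all members, called members, and genes beside the threshold) were chosen with earlier results of these data known. Results of 4 members are not reported here by name and not drawn.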

Additional observations from a re-analysis of the deposited data

How the results depend on the processing

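No paired analysis was possible because the labels give no groups and no shared replicate numbers. The genes with a slope on the projection neuron score numbered 110, and 2 members were among them. This was 323 genes and 3 members (those 2 and Kcnh3) by DESeq2, 21 genes and 0 members without the 2 libraries farthest from the median (m44 and m89), 375 genes and 6 members (those 2 with Kcnh3, Kcnip3, Kcnj4 and Kcnk2, all rising) with the length measure as a second covariate, and 0 genes and 0 members with the code as a second covariate. Over the fits without 1 library it was 44 (without m44) to 121 genes, with 57 without m73, 66 without m57 and 69 without m101, and 1 to 3 members, all higher. With the code, which was added after seeing the data, the slope on the projection neuron score was reversed to -0.87 for Kcnh3 (adjusted p = 0.404), -0.42 for Kcnip3 (adjusted p = 0.697), -0.96 for Kcnj4 (adjusted p = 0.373) and -0.19 for Kcnk2 (adjusted p = 0.858), and the cause was not tested.

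The genes with a slope on the oligodendrocyte score numbered 16, with 1 member. This was 7 genes and 0 members on unscaled totals, 183 genes and 4 members by DESeq2 (Kcnh3, Kcnh4, Kcnip3 and Kcnj4, all higher), 8 genes and 0 members with the length measure, 0 and 0 without m47 and m49, and 0 and 0 with the code. Without 1 library it was 0 (without m47) to 25 genes (without m44) and 0 to 1 member. On the cortical score every fit gave 0 genes, also without 1 library.

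On the length measure, 5064 genes and 16 members passed, 11 higher and 5 lower. Members lower were 3 on unscaled totals, and members higher and lower were 17 and 3 without m61 and m115. Without 1 library it was 4033 to 5240 genes and 11 to 23 members, 6 to 18 higher and 1 to 9 lower. The lowest and highest totals of members came without m115 or m83 (11 each) and without m61 (23). Without 1 library, 35 to 40 members exceeded the median spread of all genes. Genes in separate clusters rose from 57 to 238 and members from 0 to 1 with a gap over 0.4 of the range. With the longest transcript as the length, 21 of 68 levels per kb moved by more than the SD over libraries.

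The 11 libraries without a group limit what can be read from the slopes: all measures come from the same libraries, and depth limits Kcnj5, Kcnj14 and Kcnk9 most, with median counts of 62 to 67.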

Other observations

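Below the count threshold, Kcna3, a Kv1 channel known from lymphocytes and microglia, was listed at 0 in m61 and had a median of 0.269 CPM, but 6.15 CPM in m57, 1.92 CPM in m115, 1.56 CPM in m73 and 1.19 CPM in m47. The members Kcna1 and Kcnk9 had their highest value in m57 too, and m57, m115, m73 and m47 were 4 of the 5 libraries with a length measure above 0. Kcna3 passed the filter on low counts, at a median count of 11. It rose with the length measure, with a slope of 5.47 ± 0.84 (SE, adjusted p = 0.000364 in edgeR). The summed level of 6 microglial markers was 307 CPM in m57, 250 CPM in m115, 238 CPM in m73 and 231 CPM in m47, within the range of 231 to 375 CPM over all libraries. Whether these genes share a source was not tested.

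Kcnmb1, the BK beta subunit of smooth muscle, had a median of 0.710 CPM and reached 2.97 CPM in m115, 2.84 CPM in m47 and 1.94 CPM in m49. The summed level of 6 vascular markers was 220, 216 and 232 CPM in these libraries, where all libraries lay between 201 and 253 CPM. No marker list for smooth muscle was used, and the source of the Kcnmb1 counts was not tested. Kcna7, Kcnk18 and Kcnmb3 were listed at 0 in all 11 libraries.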
